A study of Homo sapiens with 9 samples.

Results

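The collagen genes are the human genes named COL, a type number, A and a chain number. The array holds 44 of them, measured by the 56 of its 42405 gene probes that match a RefSeq transcript of such a gene. Its probes stand for 35010 genes, where a transcript without a RefSeq symbol counts as a gene under its own identifier. The members were chosen by symbol and transcript alone, with no measured value in the rule. Earlier results of these data were known at that time. RNA came from A2780 human ovarian carcinoma cells, an established line, in 3 untreated cultures, 3 cultures exposed for 24 h to DIG-MSK at 8 nM and 3 exposed at 80 nM, and each RNA was labeled with Cy3 and hybridized to its own array. The labels give no genetic alteration, the control cultures received no drug, and the methods call the cultures independent biological replicates. DIG-MSK is an analogue of mithramycin A, an antibiotic that sits in the minor groove of DNA rich in C and G and can displace Sp1, a factor that binds GC boxes in promoters. The comparisons ask which collagen transcripts differ between treated and untreated cells, and between both concentrations.

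Collagens are the main structural proteins of the extracellular matrix. Their chains wind around each other into long helices, and a collagen protein is often built from the products of several genes. Fibrillar collagens build the tensile fibers of connective tissue, type IV collagens form the sheet of basement membranes, type VI collagens make beaded filaments around cells, and FACIT collagens sit on the surface of fibrils. Ovarian carcinoma cells can deposit such a matrix themselves, and a collagen-rich matrix is a known feature of the tumor.

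Promoter sequences from RefSeq (assembly GRCh38.p14) were available for 32 of the 44 genes, as windows of 300 bases around each transcription start. Printed here first is the stretch that lies between the starts of COL4A1 and COL4A2, which are read away from each other. Next is the stretch upstream of COL4A5, which lies between its start and the nearer COL4A6 start. Last are the 250 bases upstream of COL6A3, COL12A1 and COL9A2, chosen with their large changes known. Each is written 5′ to 3′ on the strand of the gene (for the COL4A1 and COL4A2 stretch, the strand of COL4A2). Capitals mark the GC box letters GGGCGG and the letters CCAAT, searched on both strands, where neighbouring matches may overlap. The positions are chr13:110307158-110307283 on the plus strand, chrX:108439588-108439837 on the plus strand, and on the minus strand chr2:237414165-237414414, chr6:75206054-75206303 and chr1:40317287-40317536, in the order printed.
COL4A1-COL4A2: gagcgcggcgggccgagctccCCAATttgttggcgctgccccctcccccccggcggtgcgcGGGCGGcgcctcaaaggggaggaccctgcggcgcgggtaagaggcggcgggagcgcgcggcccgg
COL4A5: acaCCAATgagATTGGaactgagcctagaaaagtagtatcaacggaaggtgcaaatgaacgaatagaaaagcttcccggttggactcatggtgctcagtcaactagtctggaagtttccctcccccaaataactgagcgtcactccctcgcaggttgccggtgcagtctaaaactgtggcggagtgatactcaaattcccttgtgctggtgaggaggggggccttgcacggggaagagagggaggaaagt
COL6A3: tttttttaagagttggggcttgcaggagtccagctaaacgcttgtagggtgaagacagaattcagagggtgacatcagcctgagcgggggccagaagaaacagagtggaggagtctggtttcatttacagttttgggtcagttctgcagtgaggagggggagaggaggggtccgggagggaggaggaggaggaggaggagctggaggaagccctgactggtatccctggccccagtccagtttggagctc
COL12A1: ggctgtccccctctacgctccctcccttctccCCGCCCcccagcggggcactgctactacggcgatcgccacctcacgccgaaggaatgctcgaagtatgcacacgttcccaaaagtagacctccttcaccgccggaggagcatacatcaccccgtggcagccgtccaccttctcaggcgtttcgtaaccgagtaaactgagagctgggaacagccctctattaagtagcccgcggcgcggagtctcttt
COL9A2: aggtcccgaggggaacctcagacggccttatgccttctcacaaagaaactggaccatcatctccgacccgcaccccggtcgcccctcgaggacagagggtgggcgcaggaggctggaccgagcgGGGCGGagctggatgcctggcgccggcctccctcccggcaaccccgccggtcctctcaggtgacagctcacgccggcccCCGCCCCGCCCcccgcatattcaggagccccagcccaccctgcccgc

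The stretch between the starts of COL4A1 and COL4A2 is 126 bases long, is 80.2% G or C, and holds 1 GC box and 1 CCAAT. The stretch upstream of COL4A5 is 51.2% G or C and holds no GC box but 2 CCAAT matches. RefSeq gives COL4A6 more than 1 start, and 379 bases separate the nearer one from the COL4A5 start. The window of the other COL4A6 start holds 1 GC box and no CCAAT. COL6A3 has neither motif in its 250 bases (56.0% G or C), COL12A1 has 1 GC box (61.2%), and COL9A2 has 3 (71.6%). Over all 35116 RefSeq windows, 45.0% held GGGCGG on either strand, 34.6% held CCAAT and the median G or C content was 58.7%. Of the 44 collagen windows, 24 (54.5%) held GGGCGG, and they belonged to 21 genes. A match of letters is a description of the sequence and not a bound site. Windows were at hand for 19 of the 28 collagen genes that could be tested (67.9%), which is too few for a comparison of promoter content between genes that rose and fell, so that comparison was not made. No window was at hand for COL1A1, COL1A2, COL2A1, COL3A1, COL5A2, COL6A1, COL6A5, COL8A1, COL9A3, COL14A1, COL20A1 and COL22A1.

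In what follows, a level is a log2 spot intensity counted from the 75th percentile of its array. A level compares the same probe between arrays and does not rank genes against each other. Changes are differences of group means in log2, with the standard error after ±, from limma on all 9 arrays with 3 arrays per group, and every adjusted p is a limma value adjusted by Benjamini-Hochberg over all 21832 genes with a test. Up- and down-regulated genes are those that changed to 1.5-fold or more, or to 0.67-fold or less, at an unadjusted p under 0.05. Of the 21832 genes tested, 13998 carried a RefSeq symbol, and the rest are transcripts under their own identifier. Shares of all genes include the latter, while every collagen gene has a symbol. The untreated and 8 nM arrays shared slide 1 and its scan, and the 80 nM arrays lay on slide 2, so the effect of 80 nM and that of the slide cannot be told apart in any value below. Between 24814 and 27151 probes per array stood well above background, the 75th percentile of the intensity lay between 831.7 and 1170, and no gene probe was saturated. Only 3 arrays per group limit the precision.

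Of the 44 collagen genes, 28 had a probe that stood well above background throughout 1 group or more and were tested, and 23 of these were well above background on all 9 arrays. Another 13 were not well above background on any array, namely COL4A3, COL4A4, COL5A3, COL6A6, COL8A1, COL8A2, COL11A1, COL15A1, COL19A1, COL21A1, COL24A1, COL25A1 and COL28A1. The other 3, COL13A1, COL6A5 and COL22A1, passed on 1 or 2 arrays of a group and were not tested. COL4A3 and COL4A4, the pair of basement membrane chains of the kidney glomerulus, were thus not well above background in these cells. Only 10 of the 44 genes had more than 1 probe. COL1A1, COL1A2, COL3A1, COL4A5, COL4A6, COL9A2 and COL9A3 are among those with 1 probe, so no other probe bears on their changes.

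At 8 nM DIG-MSK, 10 of the 28 collagen genes were called up-regulated and 0 down-regulated, that is 35.7% of the members up where 4.25% of all genes tested were called up and 2.84% down. By adjusted p, 8 were up and 0 down, against 3.71% and 1.42% of all genes. Whatever the fold, limma gave 17 collagen genes a rise and 4 a fall at an unadjusted p under 0.05, the 4 being COL9A1, COL16A1, COL23A1 and COL26A1. The fall of COL16A1 is that of 1 probe, since its other probe rose by 0.40 and the mean of its probes gave a change of 0. The share of all genes that pass an unadjusted p under 0.05 without a fold limit was not computed, here or for the lists below. Fits with the replicate number as a block also gave 0 down. The median change of the collagen genes was 0.36, and that of all genes was −0.06. At 80 nM, 11 collagen genes were up and 5 down, against 18.8% and 16.3% of all genes, and all 16 calls also passed by adjusted p, by which 18.4% and 15.9% of all genes were up and down. The share of members called up was 39.3%, and the share called down, 17.9%, lay near the background. With spike-in scaling, in which the control spots replace the 75th percentile, the 80 nM split was 8 up (28.6%) and 7 down (25%), where 10.2% of all genes were up and 26.2% down, and the median change of all genes moved from 0.08 to −0.20 and that of the collagen genes from 0.23 to −0.05. Both comparisons share the untreated arrays, so their values stand side by side and are not independent. Of the 23 members well above background on all 9 arrays, 8 (34.8%) were up at 8 nM, where 3.67% of all 18844 such genes were up. At 80 nM, 9 of the 23 (39.1%) were up and 2 (8.70%) down, where 17.2% and 13.9% of those genes were. The counts by class and by pathway step given below come from few genes each, were not tested as lists, and are to be read against the 4.25% up and 2.84% down of all genes at 8 nM and the 18.8% and 16.3% at 80 nM.

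Over both comparisons with untreated cells, 19 collagen genes were called in at least 1, of which 6 were up at both concentrations, 3 at 8 nM only and 9 at 80 nM only. The other 1, COL1A2, was called up at 8 nM and down at 80 nM. The shares of all genes with these joint patterns were not computed, so the counts describe the members only. The 8 nM arrays of 17 members lay wholly above the untreated arrays, those of 4 wholly below, and those of 7 overlapped, where 15.8% and 18.5% of all genes lay above and below. At 80 nM, 15 members lay above, 8 below and 5 overlapped, where 40.3% and 31.7% of all genes lay above and below. These are cultures measured in bulk, and fewer cells with a transcript cannot be told apart from less transcript per cell.

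**Figure D1:**
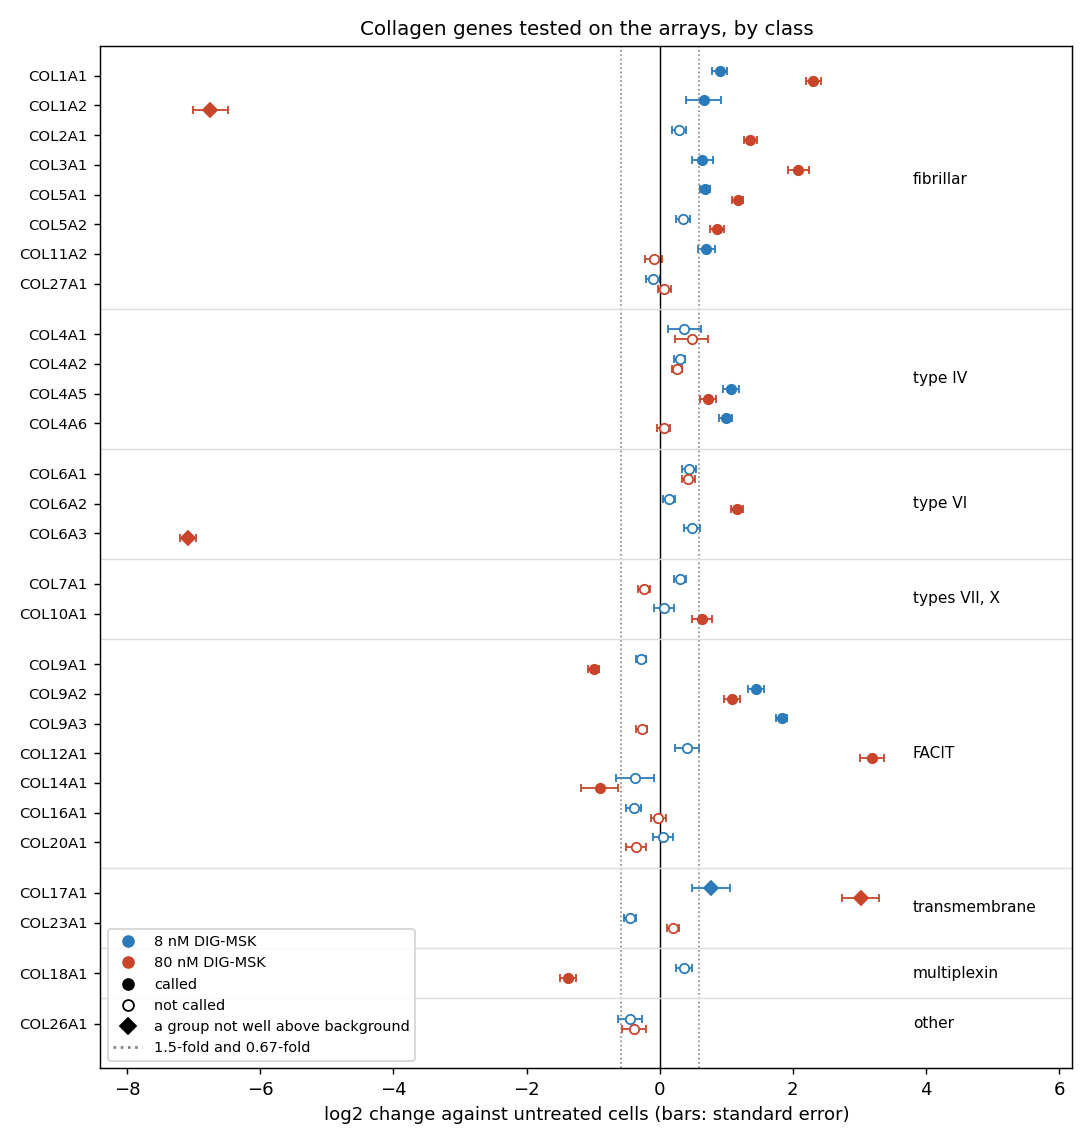
Log2 change of the 28 collagen genes tested, against untreated cells, at 8 nM (blue) and 80 nM (red), grouped by class, with standard errors from limma. Filled symbols are called, diamonds mark a comparison with a group that was nowhere well above background, and dotted lines mark 1.5-fold and 0.67-fold. COL1A2 and COL6A3 lie at −6.75 and −7.08 at 80 nM, far left of the other genes, and no filled blue symbol lies left of 0.

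Of the 8 fibrillar collagens tested, 5 (62.5%) were up-regulated at 8 nM and 0 down, and 5 were up and 1 down at 80 nM, where 4.25% of all genes were up at 8 nM and 18.8% at 80 nM. The median change of the class was 0.65 at 8 nM and 1.01 at 80 nM. COL1A1 (NM_000088) and COL1A2 (NM_000089) encode the chains of type I collagen, the main protein of tendon, bone and scar. The COL1A1 level was −2.96, −3.14 and −2.93 on the untreated arrays, −2.18, −1.91 and −2.24 at 8 nM and −0.80, −0.66 and −0.65 at 80 nM. Both treated groups lay above the untreated arrays, and the 80 nM arrays lay above the 8 nM arrays. COL1A1 rose 1.87-fold at 8 nM (log2 change 0.90 ± 0.11, adjusted p = 0.0017) and 4.96-fold at 80 nM (log2 change 2.31 ± 0.11, adjusted p = 9.7e-07).

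Its partner COL1A2 went the other way at 80 nM. The COL1A2 level was 0.16, −0.59 and −0.65 on the untreated arrays, 0.69, 0.10 and 0.09 at 8 nM and −6.96, −6.91 and −7.45 at 80 nM. The untreated and 8 nM groups overlapped, through untreated replicate 1, and the 8 nM change met the rule only by unadjusted p (log2 change 0.66 ± 0.26, adjusted p = 0.14). With the replicate number as a block on the untreated and 8 nM arrays, the rise of COL1A2 also passed by adjusted p (adjusted p = 0.044). Without the block, its call was lost without untreated replicate 2 (0.54), untreated replicate 3 (0.51) or 8 nM replicate 1 (0.46). On the 80 nM arrays the probe was nowhere well above background, and COL1A2 was at least 48.8-fold lower than in untreated cells (adjusted p = 3.6e-07) and at least 76.9-fold lower than at 8 nM (adjusted p = 2.2e-07). Such a bound sets the mean of the brighter group against a floor on each array of the dimmer group. The floor is the lowest signal of any probe well above background, or the signal of the probe itself where that is higher. On untreated replicate 3 the lowest such signal was −6.074, yet COL12A1 at −5.46 was not well above background. The bounds, here and below, are thus not strict limits. An adjusted p printed beside a bound is limma's for the measured difference and does not test the bound. Under normexp, another background correction, which adds an offset of 50 to every signal, the change at 80 nM was −3.37. With the authors' log2 values it was −4.17. In log2 the bound against untreated cells is a fall of 5.61, so both of these changes are smaller than the bound. COL1A2 was measured with 1 probe here, so no other probe bears on this fall.

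COL3A1 (NM_000090), the chain of type III collagen that is laid down with type I in soft tissue, had a level of −1.23, −1.05 and −1.30 on the untreated arrays, −0.62, −0.83 and −0.21 at 8 nM and 1.06, 0.81 and 0.78 at 80 nM. It rose 1.56-fold at 8 nM (log2 change 0.64 ± 0.16, adjusted p = 0.033) and 4.23-fold at 80 nM (log2 change 2.08 ± 0.16, adjusted p = 1.5e-05), with no overlap between any 2 groups. With the replicate block the 8 nM rise no longer passed by adjusted p (adjusted p = 0.13). The 8 nM call was lost without 8 nM replicate 3 (0.47), the highest of the 3, under normexp background correction (0.55) and with the authors' log2 values (0.57). COL2A1 (NM_001844), the chain of cartilage collagen, had a level of −4.05, −4.03 and −4.14 on the untreated arrays, −3.59, −3.83 and −3.95 at 8 nM and −2.78, −2.73 and −2.66 at 80 nM. It was 2.56-fold higher at 80 nM (log2 change 1.36 ± 0.10, adjusted p = 1e-05), while the 8 nM value of 0.29 was under the fold limit (adjusted p = 0.09). Under normexp the 80 nM change was 0.74, still called.

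COL5A1 (NM_000093) and COL5A2 (NM_000393) form type V collagen, which sets the diameter of type I fibrils. The COL5A1 level was −2.58, −2.50 and −2.53 on the untreated arrays, −2.0, −1.78 and −1.76 at 8 nM and −1.38, −1.29 and −1.43 at 80 nM. It rose 1.61-fold at 8 nM (log2 change 0.68 ± 0.08, adjusted p = 0.0018) and 2.24-fold at 80 nM (log2 change 1.17 ± 0.08, adjusted p = 1e-05), the groups standing in the order of the concentration. Its 8 nM call was lost under normexp (0.44) and with the authors' values (0.49). The other COL5A1 probe passed on 1 array at 80 nM only and was not used. The COL5A2 level was 4.61, 4.85 and 4.62 on the untreated arrays, 4.85, 5.19 and 5.10 at 8 nM and 5.56, 5.52 and 5.57 at 80 nM. COL5A2 rose 1.81-fold at 80 nM (log2 change 0.86 ± 0.11, adjusted p = 2e-04), and its 8 nM change of 0.35 was not called (adjusted p = 0.062). With spike-in scaling the 80 nM change of COL5A2 was 0.58, just under the fold limit. The third chain of this type, COL5A3, was not well above background.

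COL11A2 (NM_080680), a chain of type XI collagen, which nucleates cartilage fibrils, was the one fibrillar gene called at 8 nM and near its untreated level at 80 nM. Its level was −2.05, −2.43 and −2.19 on the untreated arrays, −1.59, −1.35 and −1.65 at 8 nM and −2.47, −2.20 and −2.29 at 80 nM. It was 1.62-fold higher at 8 nM (log2 change 0.70 ± 0.13, adjusted p = 0.01) and fell by 0.79 from 8 to 80 nM (adjusted p = 0.00095). With the replicate block the 8 nM rise did not pass by adjusted p (adjusted p = 0.086). Its probes disagreed, with 8 nM changes of −0.55 and 0.43 for the other 2, and the mean of the probes gave 0.19, which was not called, nor was the value under normexp (0.58). COL27A1, the last fibrillar gene tested, had changes of −0.10 and 0.07 at 8 and 80 nM, and neither was called.

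Of the 4 type IV collagens tested, 2 were up at 8 nM and 1 at 80 nM, and 0 were down at either concentration. COL4A5 (NM_033380) and COL4A6 (NM_033641) are neighbours, with 379 bases between the COL4A5 start and the nearer COL4A6 start. Their chains form the basement membrane of smooth muscle and of some epithelia, and both genes rose at 8 nM. Which COL4A6 start the probe reports was not examined. The COL4A5 level was −0.19, 0.10 and 0.10 on the untreated arrays, 0.84, 1.20 and 1.18 at 8 nM and 0.66, 0.72 and 0.79 at 80 nM. It was 2.1-fold higher at 8 nM (log2 change 1.07 ± 0.12, adjusted p = 0.0013) and 1.65-fold higher at 80 nM (log2 change 0.72 ± 0.12, adjusted p = 0.0012), although with spike-in scaling the 80 nM value was 0.44 and not called. The COL4A6 level was −2.54, −2.32 and −2.35 on the untreated arrays, −1.59, −1.37 and −1.28 at 8 nM and −2.36, −2.35 and −2.31 at 80 nM. The 8 nM arrays lay above all others, and the 80 nM arrays overlapped the untreated ones. COL4A6 rose 1.98-fold at 8 nM (log2 change 0.99 ± 0.10, adjusted p = 0.00067) and had a change of 0.06 ± 0.10 at 80 nM (95% interval −0.17 to 0.28), so that from 8 to 80 nM it fell by 0.93 (adjusted p = 1e-04). From 8 to 80 nM the COL4A5 change was −0.35 ± 0.12 and did not reach the fold limit.

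COL4A1 (NM_001845) and COL4A2 (NM_001846), the chains of nearly every basement membrane, are the pair read from the stretch of 126 bases printed above, and neither was called. The COL4A1 level was −4.84, −4.87 and −4.79 on the untreated arrays, −3.84, −4.66 and −4.89 at 8 nM and −4.57, −4.05 and −4.45 at 80 nM. One 8 nM array, replicate 1, stood above the other 2. At 8 nM it changed by 0.37 ± 0.25 (adjusted p = 0.35), and the 80 nM change was 0.48 ± 0.25 (adjusted p = 0.14). The COL4A2 level was −2.63, −2.69 and −2.83 on the untreated arrays, −2.38, −2.37 and −2.49 at 8 nM and −2.44, −2.41 and −2.51 at 80 nM. Both treated groups of COL4A2 lay above the untreated arrays, by 0.30 ± 0.08 (adjusted p = 0.038) and 0.26 ± 0.08 (adjusted p = 0.019), which is under the fold limit.

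Of the 3 type VI chains tested, 0 were called at 8 nM, while at 80 nM 1 rose and 1 dropped below background. At 8 nM, 2 were higher at an unadjusted p under 0.05 in limma, COL6A1 and COL6A3. COL6A1 (NM_001848), COL6A2 (NM_058174) and COL6A3 (NM_004369) encode the chains of the main type VI collagen. The COL6A1 level was 1.15, 1.25 and 1.31 on the untreated arrays, 1.5, 1.86 and 1.68 at 8 nM and 1.63, 1.75 and 1.63 at 80 nM. Its changes of 0.44 ± 0.10 and 0.43 ± 0.10 at 8 and 80 nM separated both treated groups from the untreated arrays but were under the fold limit. The COL6A2 level was −2.60, −2.69 and −2.55 on the untreated arrays, −2.37, −2.62 and −2.42 at 8 nM and −1.52, −1.43 and −1.39 at 80 nM. COL6A2 rose 2.24-fold at 80 nM (log2 change 1.16 ± 0.09, adjusted p = 1.2e-05), and its other probe rose less, by 0.54.

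COL6A3 was, with COL1A2, the collagen gene that dropped below background at 80 nM. Its level was −0.94, −0.86 and −0.76 on the untreated arrays, −0.44, −0.46 and −0.22 at 8 nM and −7.99, −8.09 and −7.70 at 80 nM. The 8 nM arrays lay above the untreated arrays by 0.48 ± 0.12 (adjusted p = 0.033), under the fold limit, and the 80 nM arrays were not well above background. COL6A3 was at least 34.7-fold lower at 80 nM than in untreated cells (adjusted p = 5.4e-09) and at least 48.4-fold lower than at 8 nM (adjusted p = 5.1e-09). Its other probe also dropped at 80 nM, with levels of −4.66, −5.28 and −4.65 on the untreated arrays and −8.08, −8.30 and −7.91 at 80 nM, where it was not well above background either. That probe had a change of 0.03 at 8 nM. Under normexp the 80 nM change of the main probe was −3.10, smaller than the bound against untreated cells, which in log2 is a fall of 5.12. The 250 bases upstream of COL6A3 printed above hold neither GGGCGG nor CCAAT, which says only that these letters are not in this stretch.

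**Figure D2:**
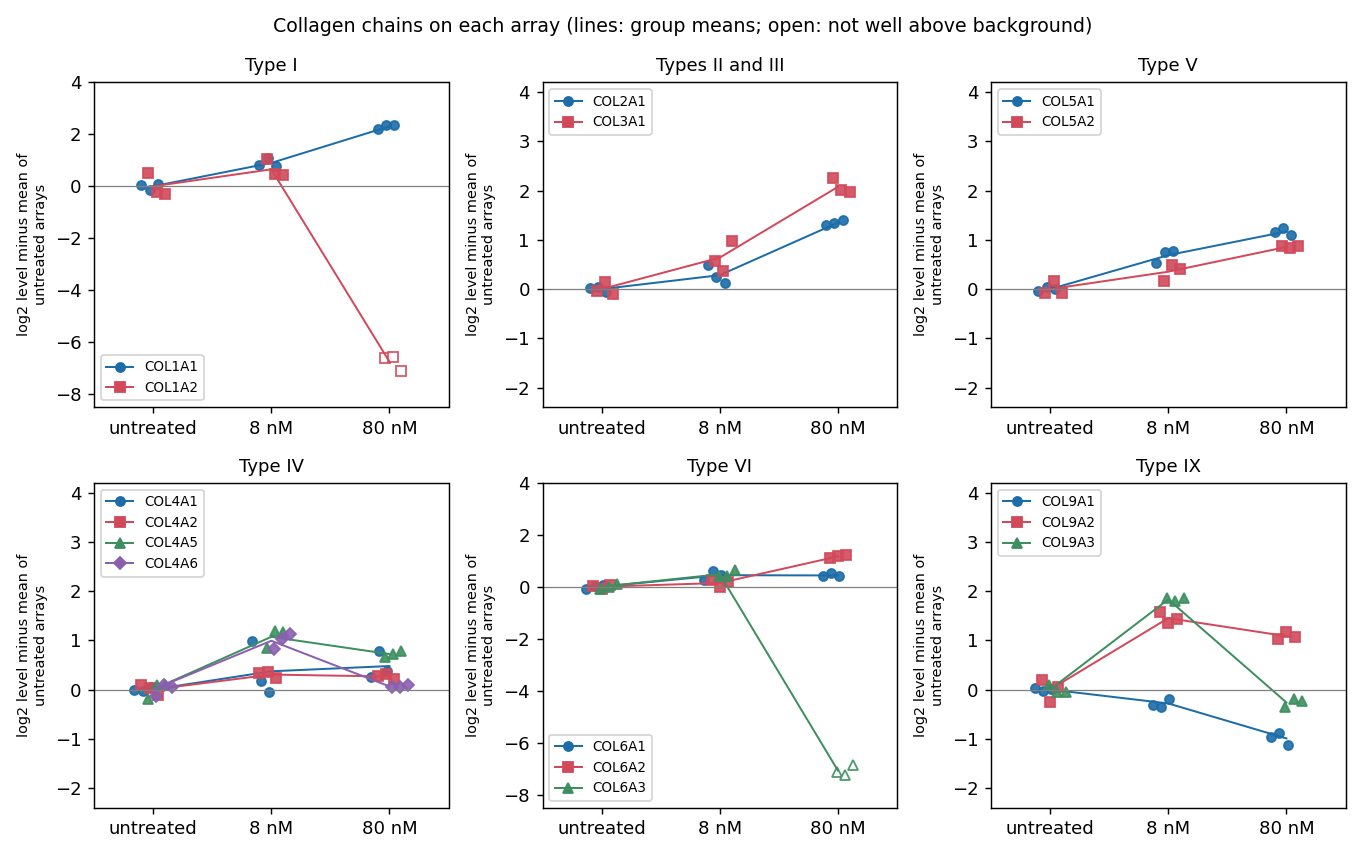
Level of collagen chains on each of the 9 arrays, in log2 relative to the mean of the 3 untreated arrays of the same gene, with 1 panel per protein type, except that types II and III share one. Points are arrays, lines join group means, open points were not well above background, and the vertical scale is longer in the type I and type VI panels. COL1A1 rises to 2.31 at 80 nM while COL1A2 drops below background, and COL9A3 peaks at 8 nM.

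Of the 7 FACIT collagens tested, 2 were up and 0 down at 8 nM, with a class median of 0.05. At 80 nM 2 were up and 2 down, 28.6% each where 18.8% of all genes were up and 16.3% down, with a class median of −0.27. Type IX collagen, the cartilage FACIT, is made of COL9A1 (NM_001851), COL9A2 (NM_001852) and COL9A3 (NM_001853), and each gene had its own pattern. The COL9A3 level was −3.09, −3.24 and −3.24 on the untreated arrays, −1.34, −1.40 and −1.34 at 8 nM and −3.55, −3.38 and −3.43 at 80 nM. The 8 nM arrays lay far above the rest and within a narrow range, and the 80 nM arrays lay just below the untreated ones. COL9A3 rose 3.56-fold at 8 nM (log2 change 1.83 ± 0.08, adjusted p = 1.6e-05), the largest 8 nM change among the collagen genes tested, and had a change of −0.27 ± 0.08 at 80 nM (adjusted p = 0.017), under the fold limit. From 8 to 80 nM it fell by 2.10 (adjusted p = 2.5e-07).

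The COL9A2 level was −4.03, −4.48 and −4.17 on the untreated arrays, −2.66, −2.87 and −2.80 at 8 nM and −3.21, −3.05 and −3.17 at 80 nM. It rose 2.72-fold at 8 nM (log2 change 1.45 ± 0.12, adjusted p = 0.00031) and 2.11-fold at 80 nM (log2 change 1.08 ± 0.12, adjusted p = 0.00012), and the stretch upstream of it, printed above, has 3 GC boxes. The COL9A1 level was −3.53, −3.59 and −3.55 on the untreated arrays, −3.87, −3.91 and −3.74 at 8 nM and −4.53, −4.44 and −4.68 at 80 nM. COL9A1 was 1.99-fold lower at 80 nM (log2 change −0.99 ± 0.08, adjusted p = 2.5e-05), while its 8 nM value of −0.28 was not called (adjusted p = 0.06). Under normexp background correction its 80 nM change was −0.41 and not called.

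COL12A1 (NM_004370), whose protein links type I fibrils to the surrounding matrix, had the largest measured rise at 80 nM. Its level was −4.71, −4.78 and −5.46 on the untreated arrays, −4.46, −4.59 and −4.68 at 8 nM and −1.75, −1.79 and −1.82 at 80 nM. The 80 nM arrays lay close together and well above the others, and untreated replicate 3, the lowest, was not well above background. COL12A1 rose 9.14-fold at 80 nM (log2 change 3.19 ± 0.18, adjusted p = 2.8e-06), and had a change of 0.41 ± 0.18 at 8 nM (adjusted p = 0.17). Under normexp the 80 nM change was 1.84, still called. Another COL12A1 probe was nowhere well above background. COL14A1 (NM_021110), a related fibril-associated chain, had a level of −4.02, −4.44 and −4.39 on the untreated arrays, −4.61, −4.92 and −4.42 at 8 nM and −4.75, −4.94 and −5.87 at 80 nM. It was 1.87-fold lower at 80 nM (log2 change −0.90 ± 0.28, adjusted p = 0.023), a call that rested on 80 nM replicate 3, which was not well above background, since without it the change was −0.56 and not called. Neither normexp (−0.15) nor the authors' values (−0.29) gave this call. COL16A1 and COL20A1 had changes between −0.39 and 0.05, none called.

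Among the other classes, COL18A1 (NM_030582), a basement membrane collagen from which the angiogenesis inhibitor endostatin is cut, fell at 80 nM. Its level was 1.69, 1.61 and 1.67 on the untreated arrays, 1.79, 2.31 and 1.94 at 8 nM and 0.23, 0.29 and 0.31 at 80 nM. It stood above the untreated arrays at 8 nM by 0.36 ± 0.12 (adjusted p = 0.093, not called) and below them at 80 nM, 2.6-fold lower (log2 change −1.38 ± 0.12, adjusted p = 3.5e-05). RefSeq gives COL18A1 more than 1 start, and the windows at hand hold 9 GC boxes and 1 GC box.

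COL17A1 (NM_000494), a transmembrane collagen that anchors epithelial cells to the basement membrane, became measurable at 80 nM only. Its level was −8.22, −8.10 and −8.30 on the untreated arrays, −7.78, −7.40 and −7.14 at 8 nM and −5.44, −5.61 and −4.51 at 80 nM. It was not well above background on any untreated or 8 nM array, and stood well above it on all 3 at 80 nM. Set against the floor described above, it was 1.85-fold above untreated cells and 1.66-fold above 8 nM. The adjusted p of limma for the measured differences was 4.2e-05 and 0.00023. COL17A1 entered the test only through the 80 nM arrays, where it was high. These values and its calls at 80 nM are thus no independent support for a rise. The 80 nM change was 0.62 under normexp and 0.89 with the authors' values, against 3.02 as measured here. In log2 the bound against untreated cells is 0.89, so the normexp change lies below it. Since both groups are below background, its call at 8 nM has no fold, and 9 of the 10 up calls at 8 nM are thus measured. COL10A1 (NM_000493), the collagen of hypertrophic cartilage, had a level of −4.34, −4.46 and −4.03 on the untreated arrays, −3.97, −4.44 and −4.22 at 8 nM and −3.67, −3.52 and −3.74 at 80 nM. It was 1.55-fold higher at 80 nM (log2 change 0.63 ± 0.15, adjusted p = 0.0067), close to the limit, and lost its call with spike-in scaling (0.35), under normexp (0.29), with quantile normalization (0.57), with the authors' log2 values (0.33), and without untreated replicate 2 (0.54) or 80 nM replicate 2 (0.57). COL7A1, COL23A1 and COL26A1 were called at neither concentration, with changes between −0.45 and 0.31.

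Between 80 and 8 nM, 7 collagen genes were higher and 7 lower at 80 nM, 25% each, where 19.5% of all genes were higher and 14.2% lower. With spike-in scaling, 6 (21.4%) were higher and 12 (42.9%) lower, where 7.99% of all genes were higher and 26.9% lower. The higher ones were COL1A1, COL2A1, COL3A1, COL6A2, COL12A1, COL17A1 and COL23A1, and the lower ones COL1A2, COL4A6, COL6A3, COL9A1, COL9A3, COL11A2 and COL18A1. COL12A1 differed most among those measured in both groups and higher at 80 nM (6.90-fold, log2 change 2.79 ± 0.18, adjusted p = 6.6e-06), followed by COL3A1 (2.71-fold, 1.44 ± 0.16, adjusted p = 0.00013) and COL1A1 (2.65-fold, 1.41 ± 0.11, adjusted p = 1.6e-05). Among the lower ones measured in both groups, COL9A3 differed most (4.28-fold), followed by COL18A1 (3.34-fold).

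Procollagen chains are hydroxylated, glycosylated and folded in the endoplasmic reticulum, exported in large COPII carriers, trimmed outside the cell, and later bound by receptors or degraded. Of the genes for these steps, FKBP10 and DDR1 were called at 8 nM, and several were at 80 nM. Of the 14 hydroxylation and glycosylation genes tested, 0 were called at 8 nM (median −0.07), with 3 higher and 3 lower at an unadjusted p under 0.05 in limma, and 4 rose (28.6%) and 1 fell (7.14%) at 80 nM, where 18.8% of all genes were up and 16.3% down. The median of these genes at 80 nM was 0.14, and that of all genes was 0.08. CRTAP and P3H1, which with PPIB form the prolyl 3-hydroxylation complex, rose at 80 nM by 1.39 ± 0.13 (adjusted p = 5.4e-05) and 0.96 ± 0.12 (adjusted p = 0.00028), and PPIB rose by 0.78 ± 0.11 (adjusted p = 0.00037). P3H2, another prolyl 3-hydroxylase, was on no 80 nM array well above background and was at least 3.55-fold lower than in untreated cells (adjusted p = 0.00043).

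Of the 8 folding and export genes, 1 (12.5%) was up at 8 nM, where 4.25% of all genes were, and 3 (37.5%) at 80 nM, where 18.8% were, with 0 down. SEC23A, a COPII coat subunit, was at 1.32, 1.55 and 1.43 on the untreated arrays and 2.69, 2.69 and 2.76 at 80 nM, a change of 1.28 ± 0.08 (adjusted p = 5.3e-06). SEC24D, its partner in the coat, rose by 0.72 ± 0.16 at 80 nM (adjusted p = 0.0052). FKBP10, a collagen prolyl isomerase, met the rule at both concentrations, with an 8 nM change of 0.66 ± 0.27 (adjusted p = 0.14) and an 80 nM change of 0.72 ± 0.27 (adjusted p = 0.046), and untreated replicate 1 (2.82) stood below the other untreated arrays (3.84 and 3.85).

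Of the 6 propeptide processing genes tested, 0 were called at 8 nM, where 2 were higher and 1 lower at an unadjusted p under 0.05 in limma, and 3 (50%) rose at 80 nM, where 18.8% of all genes were up. BMP1, the protease that removes the C-terminal propeptide, rose by 0.75 ± 0.11 (adjusted p = 0.0006). ADAMTS14, which removes the N-terminal one, rose by 0.76 ± 0.21 (adjusted p = 0.012). ADAMTS2, a protease of the same kind, was well above background at 80 nM only, at least 1.92-fold above untreated cells (adjusted p = 9.5e-05). It entered the test only through the 80 nM arrays, so its rise, 1 of the 3, is no independent support. Among the 7 genes of degradation and uptake that were tested, 0 were called at 8 nM, where 2 were higher and 2 lower at that p, and 2 rose and 2 fell at 80 nM, 28.6% each against 18.8% and 16.3% of all genes. The collagen-cutting protease CTSK rose by 1.59 ± 0.08 (adjusted p = 1e-06) and the metalloproteinase inhibitor TIMP1 by 1.08 ± 0.08 (adjusted p = 1e-05). TIMP3, an inhibitor of the same family, fell by 1.84 ± 0.10 (adjusted p = 2e-06), and the interstitial collagenase MMP1 fell by 0.66 ± 0.13 (adjusted p = 0.0028).

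Of the 8 collagen receptors tested, 1 (12.5%) was up at 8 nM, where 4.25% of all genes were, and 3 (37.5%) were up and 1 (12.5%) down at 80 nM, where 18.8% and 16.3% of all genes were. DDR1, a receptor tyrosine kinase for collagen, was at −1.61, −1.57 and −1.65 on the untreated arrays, −0.80, −0.80 and −0.83 at 8 nM and −0.32, −0.47 and −0.38 at 80 nM. It rose by 0.80 ± 0.07 (adjusted p = 0.0003) and 1.22 ± 0.07 (adjusted p = 2.1e-06), and no groups overlapped. Of the 4 integrin chains tested, 1 was up and 1 down at 80 nM, while ITGA11 (0.51 ± 0.11, adjusted p = 0.0048) and ITGB1 (0.08 ± 0.26, adjusted p = 0.80) were not called. ITGA10 rose by 2.54 ± 0.16 (adjusted p = 4.8e-06), and ITGA1 dropped below background, with levels of −0.98, −1.37 and −1.36 on the untreated arrays and −8.09, −8.06 and −7.76 at 80 nM, at least 26.6-fold lower (adjusted p = 1.8e-08). LAIR1, an inhibitory collagen receptor of leukocytes, rose by 0.98 ± 0.11 at 80 nM (adjusted p = 0.00011).

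**Figure D3:**
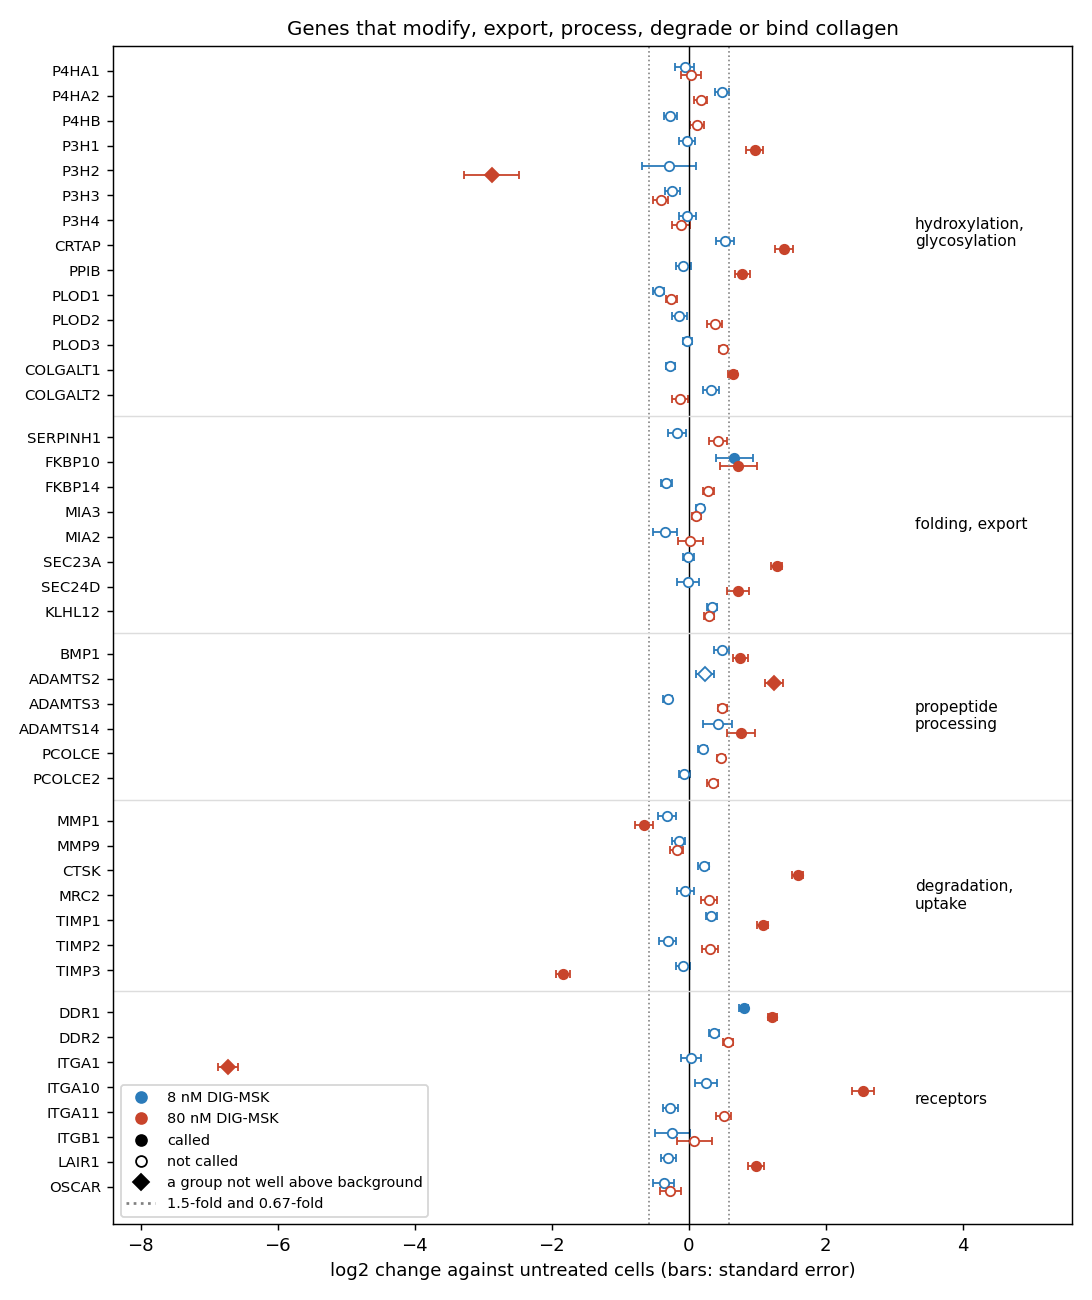
Log2 change against untreated cells, with standard errors from limma, for tested genes that modify, export, process, degrade or bind collagen, at 8 nM (blue) and 80 nM (red). Filled symbols are called, diamonds mark a comparison with a group that was nowhere well above background, and dotted lines mark 1.5-fold and 0.67-fold. Filled blue symbols are FKBP10 and DDR1, and ITGA1 lies at −6.73 at 80 nM.

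Collagens are also made by fibroblasts, so marker genes of other cell types were read on the same arrays. Of 12 fibroblast and stromal markers, 8 were well above background in untreated and in 8 nM cells and 7 at 80 nM, and FAP, PDPN and TCF21 on no array. Their summed level, as log2, lay between 4.57 and 4.67 in untreated cells, 4.79 and 4.91 at 8 nM, and 5.56 and 5.59 at 80 nM. They went in both directions at 80 nM, 3 up and 2 down of the 8 tested, with ACTA2 (2.79), POSTN (1.17) and S100A4 (0.97) higher and PDGFRA (−6.50, well above background on 2 of 3 arrays) and DCN (−1.39) lower, and at 8 nM ACTA2 rose by 0.83. Of 10 epithelial markers, 5 were well above background in untreated cells, KRT7, KRT8, KRT18, KRT19 and EPCAM, but CDH1 and CLDN3 on no array, and their summed level lay between 2.85 and 3.15 on the 9 arrays. Single markers moved all the same, since EPCAM, an adhesion molecule of epithelial cells, rose by 0.90 ± 0.22 at 8 nM (adjusted p = 0.029) and fell by 0.93 ± 0.22 at 80 nM (adjusted p = 0.0065). The tight junction gene CLDN4, on no untreated array well above background, was at least 2.05-fold higher at 80 nM (adjusted p = 0.00084). CLDN4 too entered the test only through the 80 nM arrays, so its rise is no independent support. Of 5 endothelial markers only CDH5 was well above background, and of 5 leukocyte markers 4 were. The summed level of those 4 lay between 1.06 and 1.70 and was set mostly by the CD79A probe (untreated mean level 1.45). In each marker list the sum follows its brightest probes and does not measure how much of a cell type is present. CD68, a macrophage marker found in other cells too, rose by 1.25 ± 0.08 at 80 nM (adjusted p = 6.2e-06), and PTPRC was lower at 8 nM by unadjusted p only (−0.73 ± 0.26, adjusted p = 0.096). The part of these markers in the collagen changes was not tested.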

How the data were processed

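Gene expression was measured on 9 one-colour arrays (SurePrint G3), and groups and replicates were taken from the submitters' labels. For labeling, the methods give a Low Input Quick Amp kit and the labels another protocol. The authors extracted spot intensity with Feature Extraction 10.7.3.1, and this deposited intensity had its background subtracted and was not brought to a common scale across arrays. A further table deposited by the authors holds log2 values, whose correlation with the log2 of the median spot signal lay between 0.99856 and 0.99981. It was used as an alternative only.

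Here levels are log2 processed intensities from which the array's own 75th percentile was taken away. Control spots (4259 of 62976) and outlier spots were left out. RefSeq genes (GRCh38.p14) gave names to 25713 of the 26576 probes that carry a RefSeq accession. A probe was kept when well above background on all 3 arrays of a group (26457 probes), and the brightest kept probe stood for its gene. The lmFit, contrasts and eBayes steps of limma 3.58.1 (R 4.3.3) were run on all 9 arrays, for 3 contrasts, and were tested on simulated data. Calls follow the rule of the study (1.5-fold or 0.67-fold, unadjusted p under 0.05).

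The members and lists were chosen with earlier results of these data known. Values on every array are given for called collagen genes and their partners in a protein or promoter, and at most 4 genes per pathway list are named, those with the largest 80 nM changes among the called. ITGA11, ITGB1 and the single cell type markers were named outside this rule, after their values were seen. Over all genes, the deviations of same-numbered untreated and 8 nM arrays from their group means had correlations of 0.114, 0.101 and 0.163. Those of the 80 nM arrays had −0.0088, −0.0821 and −0.00307 with untreated, and 0.0155, −0.124 and −0.0382 with 8 nM. Arrays of different number were not compared, so these values do not establish a pairing. The alternatives were normexp correction (offset 50, on the median signal), quantile normalization, scaling to 10 spike-in probes, the authors' values, other probe filters, the mean of probes, fits on fewer groups, replicate blocks, adjusted p, and each array left out.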

Additional observations from a re-analysis of the deposited data

Results flagged for a closer look

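For 5 collagen genes the 8 nM arrays all lay on one side of the untreated arrays and the 80 nM arrays on the other. For each of them the difference between the concentrations passed limma's test by adjusted p. The share of all genes with this pattern was not computed, so the count has no background beside it. COL6A3 differed by −7.56 ± 0.12 (80 nM minus 8 nM, log2, adjusted p = 5.1e-09), with the 80 nM arrays not well above background, so that this is a measured difference and the bound is the one given above. COL9A3 differed by −2.10 ± 0.08 (adjusted p = 2.5e-07) and COL18A1 by −1.74 ± 0.12 (adjusted p = 1e-05). COL7A1, the anchoring fibril collagen of skin, differed by −0.53 ± 0.09 (adjusted p = 0.0015), from 0.31 at 8 nM to −0.23 at 80 nM. COL23A1, a transmembrane collagen, went the other way and differed by 0.64 ± 0.09 (adjusted p = 0.00055), from −0.44 to 0.20. COL7A1 and COL23A1 lie outside the rule for named genes and were picked with their values in view. The 80 nM arrays lay on another slide than the 8 nM arrays, so concentration and slide cannot be told apart in these differences.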

How the results depend on the processing

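The change of every collagen gene against untreated cells was recomputed under 11 alternatives and with each of the 9 arrays left out, which gave 1082 values. Of these, 1048 kept their side of the threshold, 31 lost a call, 3 gained one and 0 called values changed sign. Held under every alternative that gave a value were 5 of the 10 calls at 8 nM and 11 of the 16 at 80 nM. The 10 genes up at 8 nM became 6 under normexp, and the 5 down at 80 nM became 3 under normexp and 2 when a gene had to be well above background on all 9 arrays, which by construction leaves out genes lost at 80 nM. Leaving out arrays gave 8 to 10 up and 0 to 1 down at 8 nM, 10 to 11 up and 4 to 5 down at 80 nM, and 14 to 15 called between 80 and 8 nM, where the 1 down was COL26A1 (−0.59) without untreated replicate 2. Spike-in scaling added down calls for COL20A1 (−0.64) and COL26A1 (−0.67) at 80 nM. Under normexp the 8 nM change of COL9A2 was 0.91 and still called, and the cause was not tested. With the replicate number as a block, 10 were up and 0 down at 8 nM, 11 up and 5 down at 80 nM, and 14 called between 80 and 8 nM. A block on the untreated and 8 nM arrays alone, added after seeing the data, also gave 10 up and 0 down. By adjusted p it gave 7 up, 6 of them shared with the 8 without the block, with COL3A1 and COL11A2 lost and COL1A2 gained. For genes near background, the signal over background limits the precision.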

Other observations

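Some collagen genes that could not be tested had signal on single arrays. COL6A5, a type VI chain, was at −3.50 on 80 nM replicate 1, where it was well above background, and at −8.26 and −7.87 on the other 80 nM arrays. COL22A1, a collagen of tissue junctions, was at −4.92 on 80 nM replicate 2 and at −8.20 and −7.90 on the other 80 nM arrays. COL13A1, a transmembrane collagen, was at −5.86, −5.24 and −5.49 on the 8 nM arrays, 2 of which were well above background, and between −6.95 and −6.39 on the untreated arrays, where it was not. The second COL20A1 probe had changes of 0.71 at 8 nM and 0.05 at 80 nM, where the probe used for the gene gave 0.05 and −0.36. The second COL16A1 probe had 0.40 and 0.35, where the probe used gave −0.39 and −0.02. These values were looked up after the results were known.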
